A study of Homo sapiens with 4 samples.

Results

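Chromosome 19 carries the largest gathering of zinc finger transcription factor genes in the human genome, and their mRNA was followed here in HaCaT keratinocytes after knockdown of the RNA demethylase ALKBH5. A gene was included when its symbol was ZNF followed by a digit, it was listed as protein-coding on chromosome 19, and its mean over the 4 libraries was at least 10 counts. The tables listed 58735 genes, of which 249 were protein-coding ZNF genes of chromosome 19, and 190 of these reached the minimum while 59 stayed below it. The rule used the symbol, the chromosome and the mean count, and no value of the difference between knockdown and control. Just inside the minimum lay ZNF682 with a mean of 10 counts, ZNF404 with 10.2 and ZNF790 with 12, and just outside lay ZNF442 with 8.50, ZNF20 with 8.25 and ZNF90 with 8.

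HaCaT is an immortalised human keratinocyte line, labelled wild type in both groups, and every culture was transfected with small interfering RNA (siRNA) by the same lipid reagent. The siControl group received a normal control siRNA and the siALKBH5 group an siRNA against ALKBH5, with 2 libraries of poly-A RNA in each group. The labels call the second library of each group a replicate and do not say whether it came from a separate culture, so the p-values measure only the spread between these libraries, which may be technical. The knockdown was transient and in a single line, and the labels do not say which siRNA sequence was used.

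Most ZNF proteins of chromosome 19 join a KRAB domain at one end to a row of C2H2 zinc fingers at the other. The fingers read DNA, often within transposable elements, and the KRAB domain recruits TRIM28, which brings in SETDB1 and other chromatin proteins that silence the bound locus. The genes arose by repeated duplication and still lie side by side in clusters, so neighbours are often relatives. ALKBH5 removes the methyl group from N6-methyladenosine (m6A) in RNA, and the comparison asks which transcripts stood at another level once ALKBH5 was reduced.

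The tables' own transcription factor annotation placed 183 of the 190 genes in the zf-C2H2 family. What the fingers share at the sequence level is the short linker between neighbouring fingers, whose coding DNA is often ACTGGAGAGAAACC. This was the 14-letter word held by the coding sequence of the most ZNF genes outside chromosome 19 (75 genes), so the members played no part in its choice. The letters, searched on the coding strand within the coding part of each gene's longest coding transcript in GENCODE 29, occurred in 99 of the 190 members (52.1%). They occurred in 26.2% of the 221 ZNF genes outside chromosome 19 that reached the same minimum and in 1.2% of 19659 protein-coding genes. The 4 sites from members with large differences are shown because they carry the repeated unit that makes these transcripts alike, with the 14 letters in capitals and 8 bases on each side. Each lies in coding sequence of exon 4 of 4, in GRCh38 coordinates, and is written 5′ to 3′ along the transcript.
ZNF443 (chr19:12431493-12431522, minus strand): gaacgcacACTGGAGAGAAACCatatgaat
ZNF136 (chr19:12187025-12187054, plus strand): gaagtcacACTGGAGAGAAACCctatgaat
ZNF708 (chr19:21294290-21294319, minus strand): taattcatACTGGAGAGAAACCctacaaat
ZNF681 (chr19:23744532-23744561, minus strand): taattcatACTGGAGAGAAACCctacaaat

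The windows of ZNF708 and ZNF681 were the same letter for letter, although ZNF708 was lower and ZNF681 higher in the knockdown. In all, the members held 403 such sites, and 76 members held 2 or more. Of 304 distances between neighbouring sites, 148 were 84 bases, the commonest spacing, and 295 were multiples of 84 bases, so the sites kept step with the finger repeat. Reads from such repeats can fit several genes, and 26 members had at least 10% of their 100-base words in a transcript of another gene, whereas 115 members shared none.

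The control libraries summed to 16017502 and 17877181 counts and the knockdown libraries to 18837807 and 16618169. ALKBH5 itself stood at 90.7 ± 4.42 counts per 1000000 counts of the library (CPM; mean ± SD, n = 2) in siControl and at 50.4 ± 1.13 CPM in siALKBH5, a log2 fold change of -0.85 ± 0.05 (SE). All 6 keratinocyte markers examined were present, from 266 to 9141 CPM, and no leukocyte marker of 4 passed 0.157 CPM. The summed keratinocyte markers were at 15801 and 16222 CPM in siControl and at 21780 and 21842 CPM in siALKBH5, and COL1A1, DCN, LUM, PMEL, CDH5 and VWF of the other lists exceeded 1 CPM. Mitochondrial reads were 10.2% in both siControl libraries and 9.63% and 9.64% in siALKBH5. The part of these shifts in the results was not tested, and in bulk RNA fewer cells with a transcript and less transcript per cell cannot be told apart.

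As a set the chromosome 19 ZNF transcripts stood lower after knockdown. Their summed level was 1616 and 1571 CPM in siControl and 1399 and 1401 CPM in siALKBH5, so both knockdown libraries lay below both controls. The group means were 1594 ± 31.6 and 1400 ± 1.01 CPM (SD, n = 2), and the knockdown held 87.8% of the control level. The median log2 fold change over the 189 members tested was -0.21 (quartiles -0.40 and -0.02), against -0.0081 over all 15075 genes tested. The fold change was negative for 146 of 189 members (77.2%), against 51.2% of all genes tested. Between replicates 1 of the groups the median difference of log2(CPM + 0.5) was -0.20 and between replicates 2 it was -0.14. Of the 189 members, 111 were lower in both and 27 were higher in both. Of all 15075 genes tested, 5831 were lower in both and 5639 higher in both. The replicate numbers name tables and were not taken as pairs.

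Gene by gene, 36 members were lower and 2 were higher at an adjusted p under 0.05 in edgeR's quasi-likelihood test, and 151 did not pass. Of all genes tested, 17.3% were lower and 19.3% higher, so the members' share of lower calls (19.05%) was near the background and their share of higher calls (1.06%) was below it. Where a change of 1 or more on the log2 scale was required as well, ZNF566 and ZNF749 were lower and ZNF530 was higher, where the background was 1.3% and 1.62%. The 2 knockdown libraries both lay below the 2 controls for 90 members (47.6%, background 33.5%) and above them for 19 (10.1%, background 32.8%). DESeq2 called 14 members lower and 0 higher among the 181 to which it gave an adjusted p, and all 14 were among the 36. At an adjusted p under 0.05, DESeq2 called 10.5% of all genes lower and 15.1% higher. At an unadjusted p under 0.05, edgeR had 49 lower and 5 higher members and DESeq2 28 and 2. The share of all genes at the unadjusted threshold was not taken, so these last counts have no background and no conclusion is drawn from them.

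**Figure D1:**
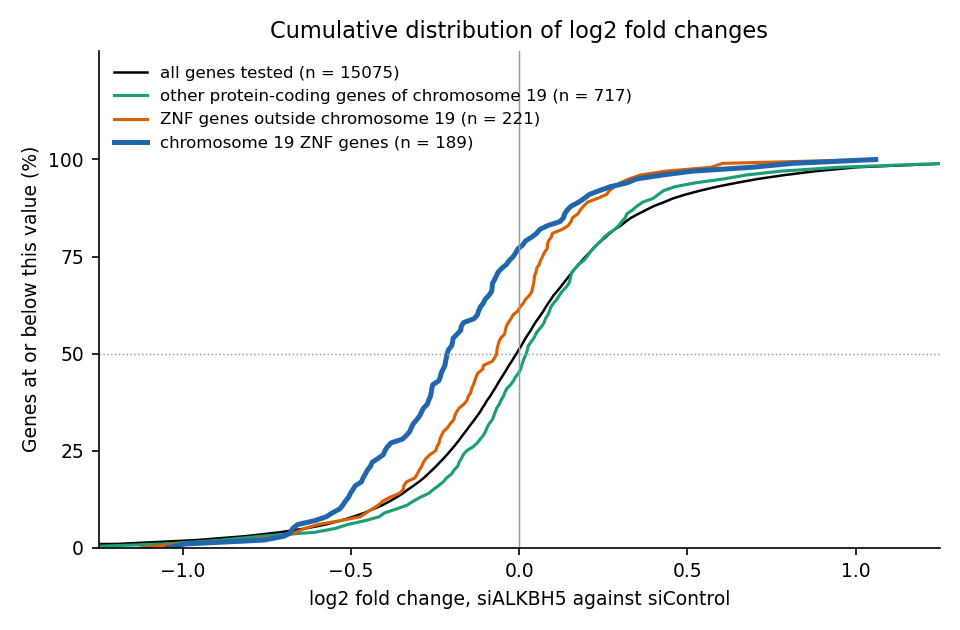
Cumulative share of genes (vertical axis, percent) at or below a given log2 fold change of siALKBH5 against siControl (horizontal axis) for 4 sets of genes. The curve of the chromosome 19 ZNF genes lies left of the others in its middle part, with a median of -0.21 against -0.07 for ZNF genes elsewhere, 0.02 for other protein-coding genes of chromosome 19 and -0.0081 for all genes tested.

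Over all levels, other genes of the chromosome and ZNF genes elsewhere had medians nearer 0. The other 717 protein-coding genes tested on chromosome 19 had a median of 0.02, with 100 lower (13.9%) and 171 higher (23.8%). Their summed level was 102.8% of the control. ZNF genes on other chromosomes had a median of -0.07, with 37 of 221 lower (16.7%) and 15 higher (6.79%), and a summed level of 95.1%. As for the members, the lower share was near that of all genes tested (17.3%) and the higher share below it (19.3%). Both knockdown libraries lay below both controls for 41.2% of these genes and above them for 15.4%, against 33.5% and 32.8% of all genes tested. The difference between these sets was not tested, since genes of a set are not replicates. Among members with a mean under 3 CPM, 2 of 52 were lower and 1 was higher, against 6.19% and 6.11% of all genes at that level, and the members' median was -0.22 where that of the 31 ZNF genes outside chromosome 19 was further from 0, at -0.27. From 3 to 10 CPM 18 of 88 were lower and 1 higher, against 13.5% and 12.1%, with a median of -0.21 against -0.07 for ZNF genes elsewhere. At 10 CPM or more 16 of 49 were lower and 0 higher in edgeR (1 higher at an unadjusted p under 0.05, and 0 in DESeq2), against 22.5% and 26.1%, and the medians were again -0.21 and -0.07.

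The called members with the largest falls were low transcripts, each under 10 CPM. ZNF566, a C2H2 gene on the minus strand (chr19:36445119-36489902), stood at 2.67 and 1.83 CPM in the controls and at 1.12 and 1.03 CPM after knockdown, from 43 and 33 against 21 and 17 counts. The groups did not overlap, and the log2 fold change was -1.05 ± 0.35 (SE, adjusted p = 0.0175). ZNF749 on the plus strand (chr19:57435329-57445485) stood at 3.72 and 4.89 CPM in the controls and at 1.93 and 2.31 CPM after knockdown, from 60 and 88 against 36 and 38 counts. Both knockdown libraries lay well under both controls, with a log2 fold change of -1.03 ± 0.24 (adjusted p = 0.00101). The call of ZNF749 held under every alternative run, but that of ZNF566 was lost with DESeq2 (adjusted p = 0.0954), without siControl replicate 1 (log2 fold change -0.76, adjusted p = 0.225), without siALKBH5 replicate 1 (-1.11, 0.0516) and without siALKBH5 replicate 2 (-0.99, 0.0692). The span of ZNF566 overlaps AC092295.2 on the other strand, and the library kit did not mark strand, so reads of the overlap cannot be told apart.

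ZNF577 is one of 3 chromosome 19 ZNF genes that the study picked as candidates on these libraries, so its fall is not independent evidence. Its levels were 4.03 and 4.67 CPM in the controls and 1.98 and 2.43 CPM after knockdown (65 and 84 against 37 and 40 counts). The groups were clearly apart, with a log2 fold change of -0.99 ± 0.24 (adjusted p = 0.00124), and its span overlaps ZNF649. ZNF573, another candidate, was covered by 29 and 32 control counts and by 10 and 29 knockdown counts. Only siALKBH5 replicate 1 was far below the controls, and the log2 fold change of -0.67 ± 0.40 did not pass (adjusted p = 0.201). Without siALKBH5 replicate 2 it was -1.72 (adjusted p = 0.0113). ZNF20, the third candidate, was not a member, and was covered by 11 and 8 control counts and by 2 and 12 knockdown counts, so its groups overlapped (log2 fold change -0.47, adjusted p = 0.622, and 0.38 without siALKBH5 replicate 1).

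A further 7 members completed the 10 largest falls among members called lower with a mean of at least 1 CPM. ZNF383 had 8.94 and 8.17 CPM in siControl and 5.41 and 4.68 CPM in siALKBH5, a log2 fold change of -0.75 ± 0.16 (adjusted p = 0.000299) that held under every alternative run. ZNF708 was tight within both groups, at 5.09 and 5.00 CPM against 3.16 and 3.16 CPM (-0.67 ± 0.20, adjusted p = 0.00898), and only DESeq2 (adjusted p = 0.0787) took its call away. ZNF136, a KRAB zinc finger repressor, had 4.65 and 3.83 CPM against 2.84 and 2.43 CPM (-0.68 ± 0.23, adjusted p = 0.0200). In each of these genes the groups did not overlap. ZNF285 (-0.77), ZNF443 (-0.72), ZNF529 (-0.67) and ZNF814 (-0.63) passed with adjusted p from 0.0180 to 0.0364 and no overlap between groups. Among these, the controls gave ZNF443 44 and 86 counts and the knockdown libraries gave ZNF529 33 and 53, whereas ZNF814 was close within each group, at 67 and 71 against 50 and 42.

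Several of these calls depended on the tool or on a single library. DESeq2 did not call ZNF136 (adjusted p = 0.116), ZNF285 (0.108), ZNF443 (0.156), ZNF529 (0.173) or ZNF814 (0.154). Without siControl replicate 1 the call was lost for ZNF136 (log2 fold change -0.53), ZNF285 (-0.46), ZNF529 (-0.67) and ZNF814 (-0.59), and without siControl replicate 2 for ZNF443 (-0.25), ZNF529 (-0.67) and ZNF814 (-0.67). Without siALKBH5 replicate 1 it was lost for ZNF285 (-0.74), ZNF529 (-0.28) and ZNF814 (-0.66), and without siALKBH5 replicate 2 for ZNF136 (-0.57), ZNF443 (-0.62) and ZNF814 (-0.59). The direction was negative in each of these settings. ZNF529 overlaps ZNF529-AS1, ZNF383 overlaps ZNF585B and ZNF814 overlaps ZNF587, and 19.8% of the 100-base words of ZNF443 and 18.1% of those of ZNF814 occur in another gene, so their levels are uncertain to that extent.

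Against this direction, ZNF530 and ZNF681 were the members that rose. ZNF530 (chr19:57599885-57612722, plus strand) stood at 0.869 and 1.11 CPM in the controls and at 1.93 and 2.25 CPM after knockdown, from only 14 and 20 against 36 and 37 counts. Its groups did not overlap, and the log2 fold change was 1.06 ± 0.35 (adjusted p = 0.0180). ZNF681 (chr19:23739195-23758891, minus strand) stood at 2.61 and 2.50 CPM in the controls and at 4.93 and 3.65 CPM after knockdown, from 42 and 45 against 92 and 60 counts. Both knockdown libraries were above both controls but spread apart from each other (0.75 ± 0.23, adjusted p = 0.0110). DESeq2 called neither (adjusted p = 0.0985 for ZNF530 and 0.0797 for ZNF681), and the call was also lost for ZNF530 without siControl replicate 1 (0.90, adjusted p = 0.109) or siALKBH5 replicate 2 (0.95, 0.124) and for ZNF681 without siALKBH5 replicate 1 (0.52, 0.207).

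**Figure D2:**
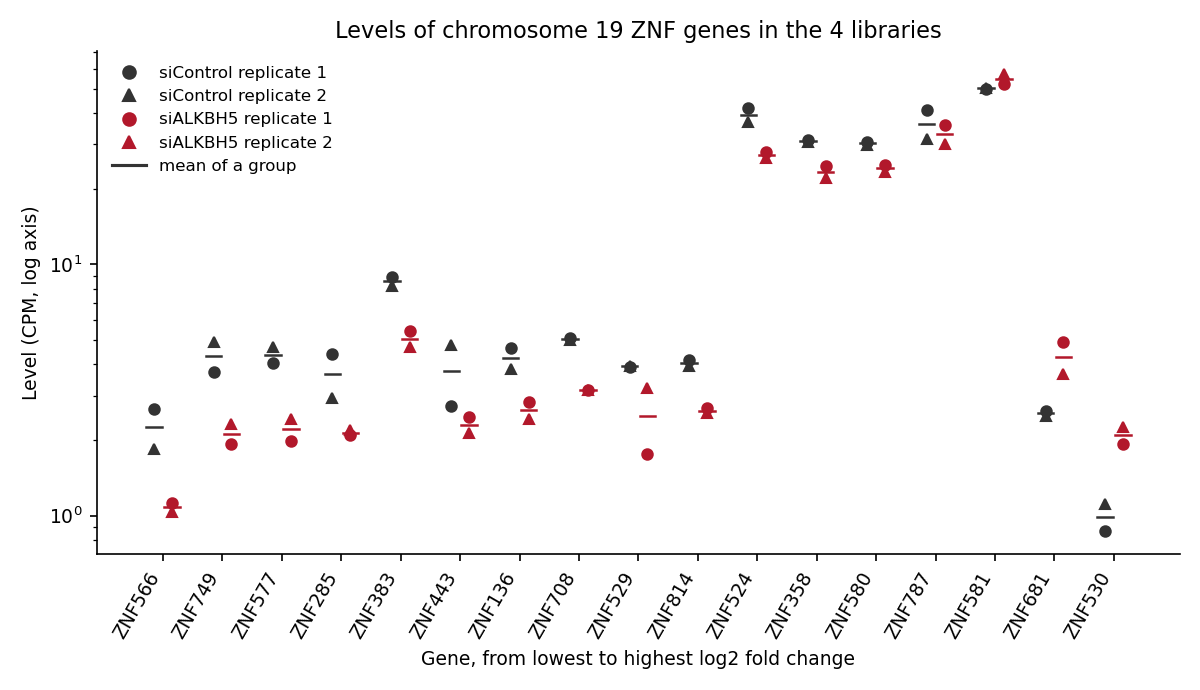
Level of 17 members in each library, in CPM on a log axis, ordered by log2 fold change, with circles for replicate 1, triangles for replicate 2, black for siControl, red for siALKBH5 and bars for the mean of 2 libraries. From ZNF566 (2.25 to 1.08 CPM) to ZNF814 (4.05 to 2.61 CPM) the red points lie below the black ones, and for ZNF681 and ZNF530 they lie above.

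Compared per kilobase of gene length, the most abundant members behaved unequally. ZNF581 had the highest level (30.2 CPM per kb, mean of the 4 libraries), followed by ZNF524 (24.5), ZNF358 (13.1), ZNF580 (10.1) and ZNF787 (9.42). ZNF524, a protein that binds telomere repeats, had 41.8 and 36.7 CPM in siControl and 28.0 and 26.5 CPM in siALKBH5 and fell by 0.52 ± 0.08 on the log2 scale (adjusted p = 1.58e-06). ZNF358 (-0.40 ± 0.08, adjusted p = 0.000216) and ZNF580 (-0.33 ± 0.08, adjusted p = 0.00147) were also lower with no overlap. ZNF581 was at 49.8 and 50.4 CPM in siControl and 52.3 and 57.4 CPM in siALKBH5, slightly higher in both, and did not pass (0.13 ± 0.06, adjusted p = 0.102), although it did without siALKBH5 replicate 1 (0.20, adjusted p = 0.0338). ZNF787 ranged from 31.5 to 41.0 CPM in siControl and from 30.2 to 35.7 CPM in siALKBH5, so the groups overlapped (-0.13, adjusted p = 0.296), and leaving out a library moved it from -0.31 without siControl replicate 2 (adjusted p = 0.00379) and -0.25 without siALKBH5 replicate 1 (0.0291) to 0.07 without siControl replicate 1. ZNF580 and ZNF581 overlap each other on the same strand, ZNF524 overlaps FIZ1, and 17.4% of the words of ZNF358 are shared, so the split of reads among them is uncertain.

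Several members with known roles were looked at after their values were seen. ZNF350, a KRAB repressor that partners BRCA1, had 8.25 and 8.39 CPM in siControl and 5.73 and 5.41 CPM in siALKBH5 (-0.58 ± 0.15, adjusted p = 0.00340). ZNF224, a repressor of the aldolase A gene, had 9.31 and 9.06 CPM against 6.48 and 6.44 CPM (-0.51 ± 0.15, adjusted p = 0.00634, and 0.0644 with DESeq2). ZNF146, a protein made almost wholly of zinc fingers, had 36.6 and 33.4 CPM against 26.6 and 26.9 CPM (-0.39 ± 0.08, adjusted p = 0.000137). In all of these the groups were apart. Not every member with a role in silencing moved so, for ZNF91, which represses SVA retrotransposons, had 24.6 and 21.4 CPM in siControl and 25.3 and 25.4 CPM in siALKBH5 (0.14 ± 0.09, adjusted p = 0.214). ZNF473, which takes part in histone pre-mRNA processing, had a log2 fold change of -0.27 ± 0.12 (adjusted p = 0.0779, and 0.0489 without siALKBH5 replicate 1), and the imprinted gene ZNF331 one of -0.16 ± 0.19 (adjusted p = 0.557).

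Along the chromosome the members fell into clusters, taken as runs of ZNF genes whose starts lay no more than 1 Mb apart. Such groups with at least 5 members numbered 8 and held 177 of the 190, and the median log2 fold change was negative in all 8. The share of members called lower ran from 12.5% to 33.3% over these groups, against 17.3% of all genes tested, and 6 of the 8 lay between 16.7% and 23.1%. The group at chr19:43525497-45076588 (ZNF575 to ZNF296) had all of its 24 ZNF genes above the count minimum, and 22 of the 24 were negative, with a median of -0.33. Its summed level was 146 and 133 CPM in siControl and 115 and 109 CPM in siALKBH5 (80.4% of control), and ZNF224, ZNF226, ZNF285 and ZNF428 were lower. Of 19 other protein-coding genes tested within the same stretch, 1 was lower and 6 were higher, with a median of 0.11. In the other groups such genes numbered 30 in ZNF557 to ZNF846 (5 lower, 7 higher, median 0.04) and 13 in ZNF628 to ZNF446 (2 lower, 2 higher, -0.02). There were 3 in ZNF565 to ZNF573 (0 called, -0.40, the members' direction). That median was the value of ZFP14, itself a zinc finger gene under another name, so these 3 are not all unrelated neighbours. There were 2 in ZNF653 to ZNF791 (0 called, -0.08), 2 in ZNF175 to ZNF331 (0 called, 0.06) and 0 in the remaining 2. ZNF226 alone gave 315 and 313 control counts and 245 and 216 knockdown counts.

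The group at chr19:36182060-37817300 (ZNF565 to ZNF573) was low in level, with a median member at 1.76 CPM, and had the lowest summed share, 75.8% of control. Its sum was 88.1 and 80.3 CPM in siControl and 63.2 and 64.5 CPM in siALKBH5, with no overlap, and 17 of 19 members were negative (median -0.32). ZNF146, ZNF566, ZNF529 and ZNF383 were the 4 lower calls (21.1%, against 17.3% of all genes tested). The group at chr19:11483427-12640098 (ZNF653 to ZNF791) had the most negative median (-0.34) and 5 of 15 members lower (33.3%, against 17.3% of all genes tested), namely ZNF823, ZNF700, ZNF136, ZNF44 and ZNF443. Within it ZNF441 went the other way, from 14 and 25 control counts to 31 and 39 knockdown counts, without passing (0.81, adjusted p = 0.077).

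The largest groups lay near the end of the long arm. The group at chr19:51571298-53580269 (ZNF175 to ZNF331) had 34 members, 7 lower (20.6%, near the 17.3% of all genes tested) and 27 negative, with a median of -0.18. ZNF600 had 18.1 and 16.7 CPM in siControl and 12.5 and 11.1 CPM in siALKBH5, and ZNF160 had 15.8 and 18.3 against 11.5 and 11.5 CPM, so both were apart (-0.56 and -0.57, adjusted p = 0.000213 and 0.000165). ZNF468 (-0.39) was lower too, but 99.1% of its 100-base words occur in another gene. The group at chr19:55476332-58481230 (ZNF628 to ZNF446) had 48 members and a median of -0.19. Of these 6 were lower (12.5%, below the 17.3% of all genes tested) and 1 was higher (2.08%, against 19.3%).

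The remaining groups were smaller or less uniform. At chr19:19668796-24129961 (ZNF101 to ZNF254), a stretch of primate-expanded genes, 19 of 37 ZNF genes reached the minimum, and 10 of the 18 tested were negative, with a median of -0.08. It held 4 lower members (22.2%, against 17.3% of all genes tested) and ZNF681 as the higher one. Its sum of 150 and 142 CPM in siControl and 131 and 139 CPM in siALKBH5 left a narrow gap between groups. ZNF506, in the same group, fell from 16.1 and 14.9 CPM to 10.5 and 10.8 CPM (-0.54, adjusted p = 0.000382). The group at chr19:7069444-9793180 (ZNF557 to ZNF846) had 3 of 13 lower (23.1%) and a median of -0.08. That at chr19:34677639-34964049 (ZNF302 to ZNF792) had 1 of 5 lower (20%) and a median of -0.22. Of the members 105 lay on the plus and 85 on the minus strand, and of the 36 lower ones 17 and 19.

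**Figure D3:**
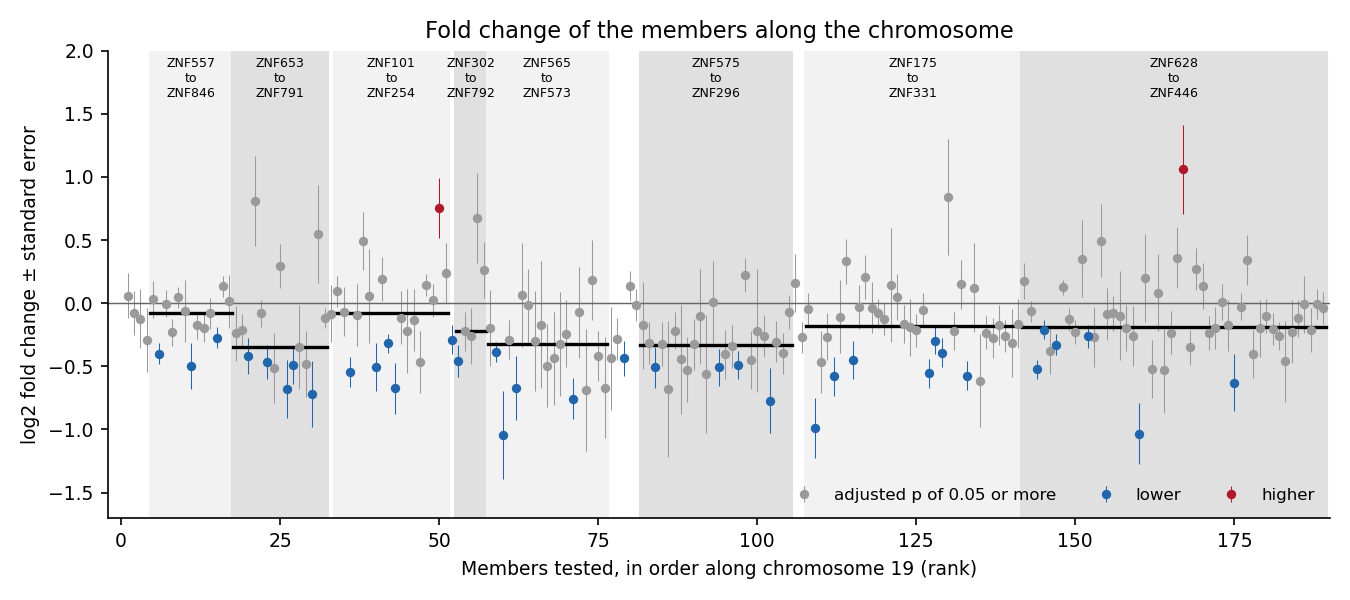
Log2 fold change ± SE of each of the 189 members tested, in order along chromosome 19, with blue for lower, red for higher and grey for members that did not pass. Shaded blocks are the 8 position groups, named by their first and last member, and the black line in each is the median, from -0.34 to -0.08.

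**Figure D4:**
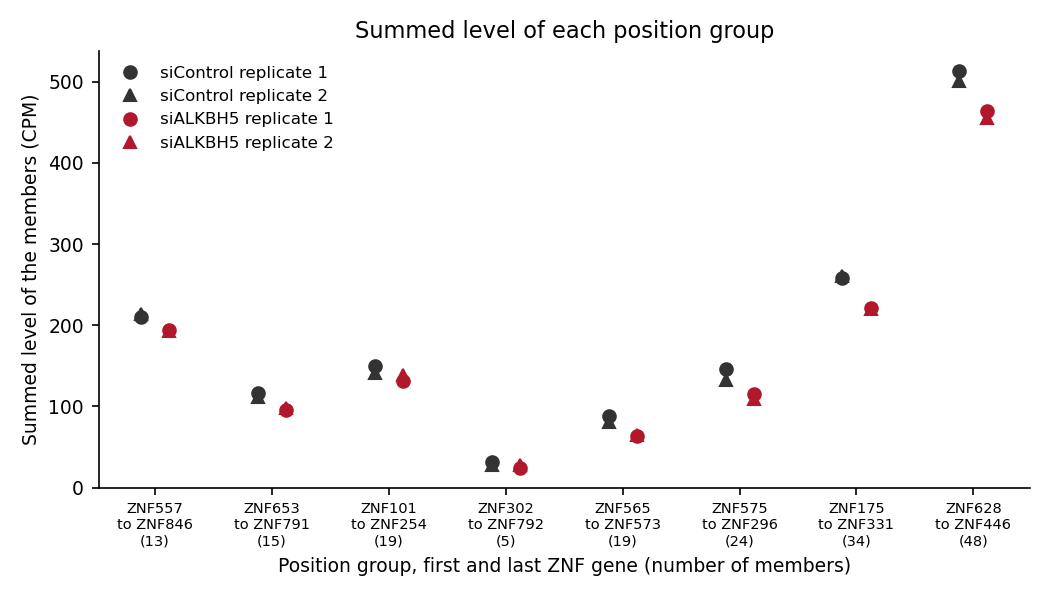
Summed level of the members of each position group in CPM, for siControl (black) and siALKBH5 (red), with circles for replicate 1 and triangles for replicate 2. In each of the 8 groups both red points lie below both black ones, from 513.8 and 501.1 against 463.6 and 455.02 CPM in the ZNF628 to ZNF446 group to 31.3 and 28.3 against 24.1 and 27.5 CPM in the ZNF302 to ZNF792 group.

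Base composition moved with the result. The members' longest coding transcripts had a median GC content of 42.7%, and those of all protein-coding genes tested 49.0%. Over all protein-coding genes tested, those under 40% GC had a median log2 fold change of -0.13 (649 lower and 182 higher of 1880), and those from 40 to 45% had -0.05, from 45 to 55% 0.05 and at 55% or more 0.04. Within the same classes the members had medians of -0.27, -0.24, -0.17 and -0.17, lower than the protein-coding genes in each. Calls went differently from medians. Lower members numbered 12 of 45 (26.7%), 18 of 83 (21.7%), 1 of 38 (2.63%) and 5 of 23 (21.7%) in these classes, and lower protein-coding genes made up 34.5%, 23.7%, 13.5% and 13.6%, so the members' share was below that of protein-coding genes in the 3 classes under 55% GC and above it in the other. The classes were not matched for level, with member medians of 3.44, 5.48, 3.89 and 12.5 CPM. Those of the protein-coding genes were 24.3, 26.2, 28.2 and 25.9 CPM, and over all genes tested calls were rarer at low levels. The part of GC content and of level in the calls was not tested.

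**Figure D5:**
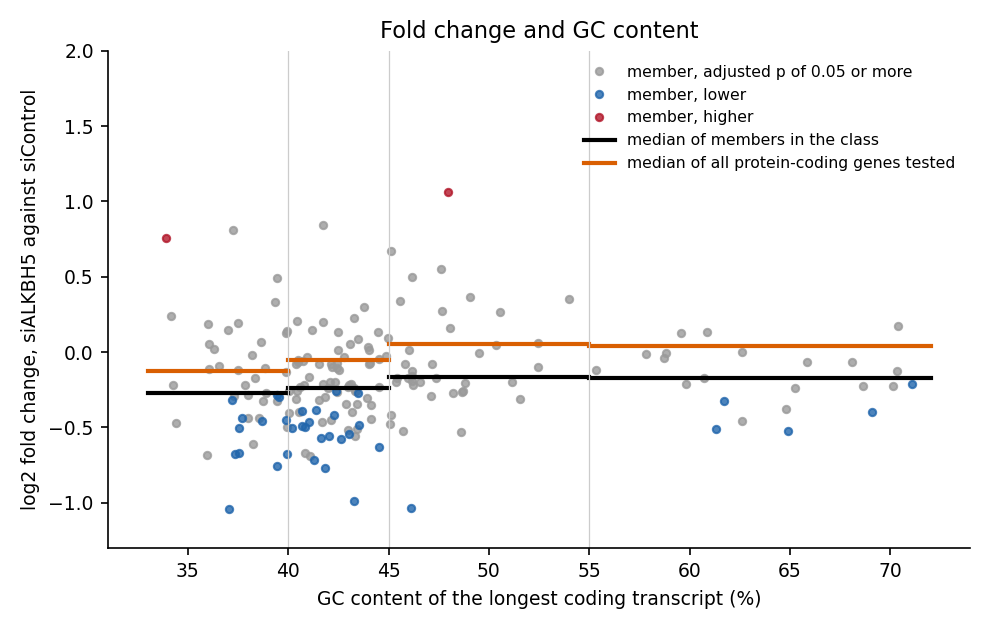
Log2 fold change of each member (vertical axis) against the GC content of its longest coding transcript in percent (horizontal axis), with blue for lower, red for higher and grey for members that did not pass. Black lines are the members' medians in 4 GC classes (-0.27, -0.24, -0.17 and -0.17) and orange lines those of all protein-coding genes tested (-0.13, -0.05, 0.05 and 0.04).

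Motifs were counted in the lower members and in those that did not pass, and the differences were not tested. The 14-letter linker motif occurred in 47.2% of the 36 lower members and in 53.0% of the 151 that did not pass. By number of sites, 19 of 91 members with no site were lower, 3 of 49 with 1 to 3 sites and 14 of 49 with 4 or more. Of all genes tested 17.3% were lower. The medians of the 3 classes were close to each other, at -0.20, -0.22 and -0.22. GGACT, a common core of m6A sites, was searched on the transcript strand only. It had a median of 0.649 matches per kb in lower members and 0.830 in those that did not pass. The median was 0.745 in all members, near the 0.747 of ZNF genes outside chromosome 19, and 0.927 in all protein-coding genes. GGACT occurred at least once in 94.2% of members, 93.2% of ZNF genes outside chromosome 19 and 92.6% of protein-coding genes tested. Over all protein-coding genes, expressed or not, the share was 88.8%. These are letter matches, and m6A itself was not measured in these libraries.

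The partners through which KRAB zinc finger proteins silence DNA moved both ways. Of 26 corepressor genes examined, 7 were lower (26.9%, against 17.3% of all genes tested) and 8 higher (30.8%, against 19.3%), with a median log2 fold change of 0.01. Their median level was 55.7 CPM, and among all genes tested at 10 CPM or more 22.5% were lower and 26.1% higher. TRIM28, the scaffold bound by KRAB domains, had 276 and 266 CPM in siControl and 310.2 and 303.8 CPM in siALKBH5 and rose by 0.18 ± 0.03 on the log2 scale (adjusted p = 7e-06). SETDB1, the histone H3 lysine methyltransferase it recruits, had 40.2 and 44.6 CPM against 42.9 and 44.2 CPM, so its groups overlapped (0.04 ± 0.07, adjusted p = 0.722, and -0.03 without siControl replicate 1). DNMT1, the maintenance DNA methyltransferase, rose from 45.6 and 45.02 CPM to 77.4 and 79.4 CPM (0.79 ± 0.05, adjusted p = 8.79e-14), and UHRF1, which guides it, from 7.88 and 7.17 to 12.8 and 14.1 CPM (0.84 ± 0.13, adjusted p = 5.02e-06). CBX5, a heterochromatin protein, was higher as well (0.39 ± 0.04). Of the other CBX genes on the list, CBX3 was lower (-0.10 ± 0.04, adjusted p = 0.0308) and CBX1 did not pass (0.06 ± 0.06, adjusted p = 0.468). On the lower side stood the chromatin remodellers SMARCAD1 (-0.48 ± 0.10) and CHD3 (-0.31 ± 0.03) and the ATPase MORC3 (-0.41 ± 0.07). Without siControl replicate 2 the number of lower corepressors was 4.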

How the data were processed

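RNA-seq of poly-A RNA from 2 siControl and 2 siALKBH5 HaCaT libraries was analysed from 2 tables of 1 library per group each. The submitters' processing notes name CASAVA, HISAT2 2.0.5, featureCounts 1.5.0-p3, DESeq2 1.20.0 and hg38. The authors deposited raw read counts per gene, used here, beside FPKM values and their own log2 fold change and p-value columns from comparisons of 1 library with 1, which were not used. Members and lists were chosen with earlier results of these data known.

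Counts were tested with edgeR 4.0.16 (R 4.3.3; filterByExpr, TMM, quasi-likelihood, two-sided) over 15075 genes, with Benjamini-Hochberg adjustment. ZNF682 did not pass the filter. CPM used TMM library sizes. Named genes were ALKBH5, TRIM28, SETDB1, the study's candidates, members past both thresholds, the 10 lower and 10 higher members with the largest fold change among those called with at least 1 CPM, the 5 highest per kb and 3 on each side of the count minimum. Other genes named were chosen after their values were seen, as were the GC classes, level classes and shared-word limit. Motifs, GC and words came from GENCODE 29 transcripts, whose coordinates matched all 190 members. Protein sequences were not analysed here. Scripts were tested on simulated counts. DESeq2 1.42.0, other scalings and filters, a replicate block and leaving out each library were alternatives. Replicates differed beyond counting noise (chi-square per degree of freedom 1.73 and 1.85).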

Additional observations from a re-analysis of the deposited data

How the results depend on the processing

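With DESeq2, 14 members were lower and 0 higher, and with the fold threshold 1 was lower and 0 higher. Counting only members with a mean of at least 50, 34 of 140 were lower and 1 was higher, and with the fold threshold 1 was lower and 0 higher. The share of all genes called at that minimum was not taken. Without members that overlap another gene, 21 of 127 were lower, 1 of them past the fold threshold, where the smaller set accounts for part of the fall. Leaving out each library gave 26 to 35 lower and 1 to 3 higher members, with the fold threshold 0 to 4 lower and 0 to 1 higher, a median from -0.24 to -0.16, and 4 to 6 lower corepressors. The count past the fold threshold was 0 lower without siALKBH5 replicate 1, 4 without siALKBH5 replicate 2 and 3 without siControl replicate 1, and 0 higher without siControl replicate 1 or siALKBH5 replicate 2. The higher count was 1 without siALKBH5 replicate 2 and 3 without siControl replicate 2 or siALKBH5 replicate 1. Each run without a library left 1 library in a group. In every such run some of the 36 lower calls were lost, and some members outside the 36 were called lower. The shares of all genes called lower and higher were also smaller than with all 4 libraries. The counts of these runs thus do not measure how stable the 36 calls were. With library size only, 40 of 189 members were lower, against 19.2% of all genes tested. The median of all genes then moved from -0.0081 to -0.03. Without a filter 32 of 190 members were lower, against 8.59% of the 27826 genes then tested. A gap of 0.5 Mb gave 9 position groups in place of 8.

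A replicate block gave 39 lower and 2 higher of 189 members, against 18.8% and 20.5% of all genes tested, and a median of -0.21. The numbers name tables and not cultures, and same-numbered libraries' deviations correlated at 0.0418, so they were not taken as pairs. Leaving out a library reversed the direction of SETDB1 (-0.031 without siControl replicate 1, range to 0.11), ZNF20 (0.38 without siALKBH5 replicate 1, range from -2.31), ZNF787 (0.072 without siControl replicate 1, range from -0.31), ZNF790 (0.23 without siControl replicate 1 and 0.03 without siALKBH5 replicate 2, range from -0.51) and ZNF90 (-0.41 without siControl replicate 2, range to 1.58), none of them called with all 4 libraries, and the cause was not tested. Under 3 CPM 49 of 52 members did not pass, and the part of depth in this was not tested. No member had a joined symbol, so that alternative changed nothing.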

Other observations

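On chromosome 19, 7 expressed genes were found under the other zinc finger names searched (ZFP, ZSCAN, ZKSCAN, ZIM, ZIK, ZBTB and PEG3, leaving out the RNA-binding ZFP36), and further names were not searched. In edgeR 0 were lower (1 at an unadjusted p under 0.05) and 2 were higher, and in DESeq2 0 were lower and 1 was higher. Of all genes tested, edgeR called 17.3% lower and 19.3% higher, and DESeq2 10.5% and 15.1%. With 7 genes, these counts cannot be told apart from such shares. ZSCAN5A was covered by 125 and 91 control counts and by 160 and 162 knockdown counts, with no overlap (log2 fold change 0.53 ± 0.17, adjusted p = 0.0115 in edgeR). ZBTB7A, a BTB zinc finger repressor, had 1427 and 1610 counts against 2000 and 1605, or 89.02 ± 0.65 against 102.3 ± 6.75 CPM (0.20 ± 0.05, adjusted p = 0.000716). The call of ZSCAN5A was lost with DESeq2 (adjusted p = 0.0804), without siControl replicate 2 (0.24) and without siALKBH5 replicate 2 (0.43), and that of ZBTB7A without siALKBH5 replicate 1 (0.13). ZFP30, with 86 and 103 counts against 78 and 66, and ZFP14, with 69 and 107 against 80 and 57, lie within the ZNF clusters and had values of -0.43 and -0.40 that did not pass (adjusted p = 0.0647 and 0.125).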
